A study of Homo sapiens with 3 samples.

Results

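The genes described here are 38 genes of epithelial cell junctions, apicobasal polarity, polarized trafficking and the matriptase system of the cell surface. They were chosen by name, with earlier results of these data known. Of the 38 genes, 36 were read by at least 1 probe set annotated to a single gene, and all 36 passed the signal filter, out of 12321 genes tested. The probe sets of CTNND1, which encodes p120-catenin, also name a readthrough transcript, and F11R, which encodes JAM-A, was named by no probe set of 1 gene, so neither was analysed here. RNA levels were read in the human colorectal cancer line HCT-116 on 3 arrays: SCD1-WT cells given T-3764518, an inhibitor of the desaturase SCD1, at 100 nM for 24 h; SCD1-KO cells, which by the methods were also treated with DMSO for 24 h, although the label of that array gives neither vehicle nor time; and SCD1-WT cells treated with DMSO for 24 h. The SCD1-KO cells were made with CRISPR-Cas9 and guide RNAs, selected with puromycin and grown out after limiting dilution, so differences between clones and the loss of SCD1 cannot be told apart. With 1 array per condition, no difference could be set against replicates, and p-values are not given.

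The deposited value of a probe set is a MAS5 signal on a linear scale, with each array scaled to the same trimmed mean. A gene's log2 ratio to DMSO was the median over its probe sets whose log2 signal, averaged over the 3 arrays, was at least the median over the whole array (a signal of 56.6). A gene is called higher or lower at 2-fold, a log2 ratio of 1 or -1. The only spread these arrays hold is that between probe sets of the same gene, whose SD of the log2 ratio was 0.58 in the dimmest and 0.26 in the brightest quintile of signals with T-3764518, and 0.60 and 0.25 in the knockout. It does not cover differences between cultures. The 3′ probes of ACTB read 1.36 times its 5′ probes with T-3764518, 1.54 times in the knockout and 1.30 times with DMSO, a measure of RNA integrity whose part in the results was not tested. Of the signals, 100% had at most 1 decimal with T-3764518 and with DMSO, against 0.353% in the knockout, so the SCD1-KO values were written out differently, and an array processed apart from the others cannot be told apart from the knockout. The RNA of SCD, the gene of SCD1, was not lower in SCD1-KO cells: its 4 probe sets read 21595, 39350.4, 6908 and 8438 with T-3764518, 7692, 24119, 1965 and 2521 in the knockout, and 3654, 23841, 834 and 984 with DMSO. The methods describe deletion of part of the gene, and where the probes lie relative to it is not given, so these signals do not check the label of the knockout.

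Epithelial cells are held together by a belt of junctions near their apical surface. Tight junctions, built from claudins, occludin and the scaffold proteins ZO-1 and ZO-3, seal the space between cells; adherens junctions join the actin cytoskeletons of neighbours through E-cadherin and the catenins; desmosomes anchor keratin filaments through desmosomal cadherins, plakophilins and plakins. The PAR and Crumbs complexes set the border between the apical and basolateral membranes, and the membrane serine protease matriptase, its activating partner prostasin and their Kunitz inhibitors act on the same cell surface. These genes are commonly lower in carcinoma cells that take on mesenchymal features.

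In SCD1-KO cells the junction and polarity genes were shifted below the DMSO-treated SCD1-WT cells, most of them by less than 2-fold. Of 36 genes, 10 were 2-fold lower and none was 2-fold higher, where 3.93% of all genes tested were 2-fold lower and 3.12% were 2-fold higher. The log2 ratio was below 0 for 35 of the 36, against 51.1% of all genes. When arrays were scaled to 1 median, it was below 0 for 31 of the 36, against 37.7% of all genes. As reported, its median was -0.55 (1.46-fold lower), against -0.011 over all genes. Counting from 1.5-fold, 17 were lower (11.4% of all genes), and from 3-fold, 3 were (1.1%). A further 18 were below 0 by less than 1.5-fold, among them CTNNA1, DSP and CLDN2 at log2 ratios of -0.015, -0.022 and -0.053. TJP1 alone was above its DMSO level. Of the 10 that were 2-fold lower, 5 were read by 1 kept probe set each. Lower by over 2 SD of the probe sets at their signal were 13 of the 36, against 6.96% of all genes, and none was higher by as much, against 6.53%. The kept probe sets of these genes numbered 65, and 59 of them were below 0 in SCD1-KO cells, against 50.8% of all 23192 kept probe sets. For 14 of the 18 genes with several kept probe sets every one of them was below 0, which was not counted over all genes. In RNA from a whole culture, fewer cells that express a gene and less of its RNA in each cell cannot be told apart.

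With T-3764518 the same genes were centred near their DMSO level. LIN7A was 2-fold lower and none was 2-fold higher, where 3.3% of all genes tested were lower and 2.18% were higher. The log2 ratio was below 0 for 20 of 36, against 59% of all genes, and the median was -0.041. When arrays were scaled to 1 median, 9 of 36 were below 0, against 31.0% of all genes. From 1.5-fold, 3 were lower and 3 higher (12.3% and 6.62% of all genes). The plot of log2 ratios by gene shows the SCD1-KO values displaced to the left of 0 in every list, and the T-3764518 values on both sides of it except among the 8 desmosomal genes, which all lay below 0 (though their median was 0.087 when arrays were scaled to 1 median), and the 3 adherens junction genes, which all lay above it.

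**Figure D1:**
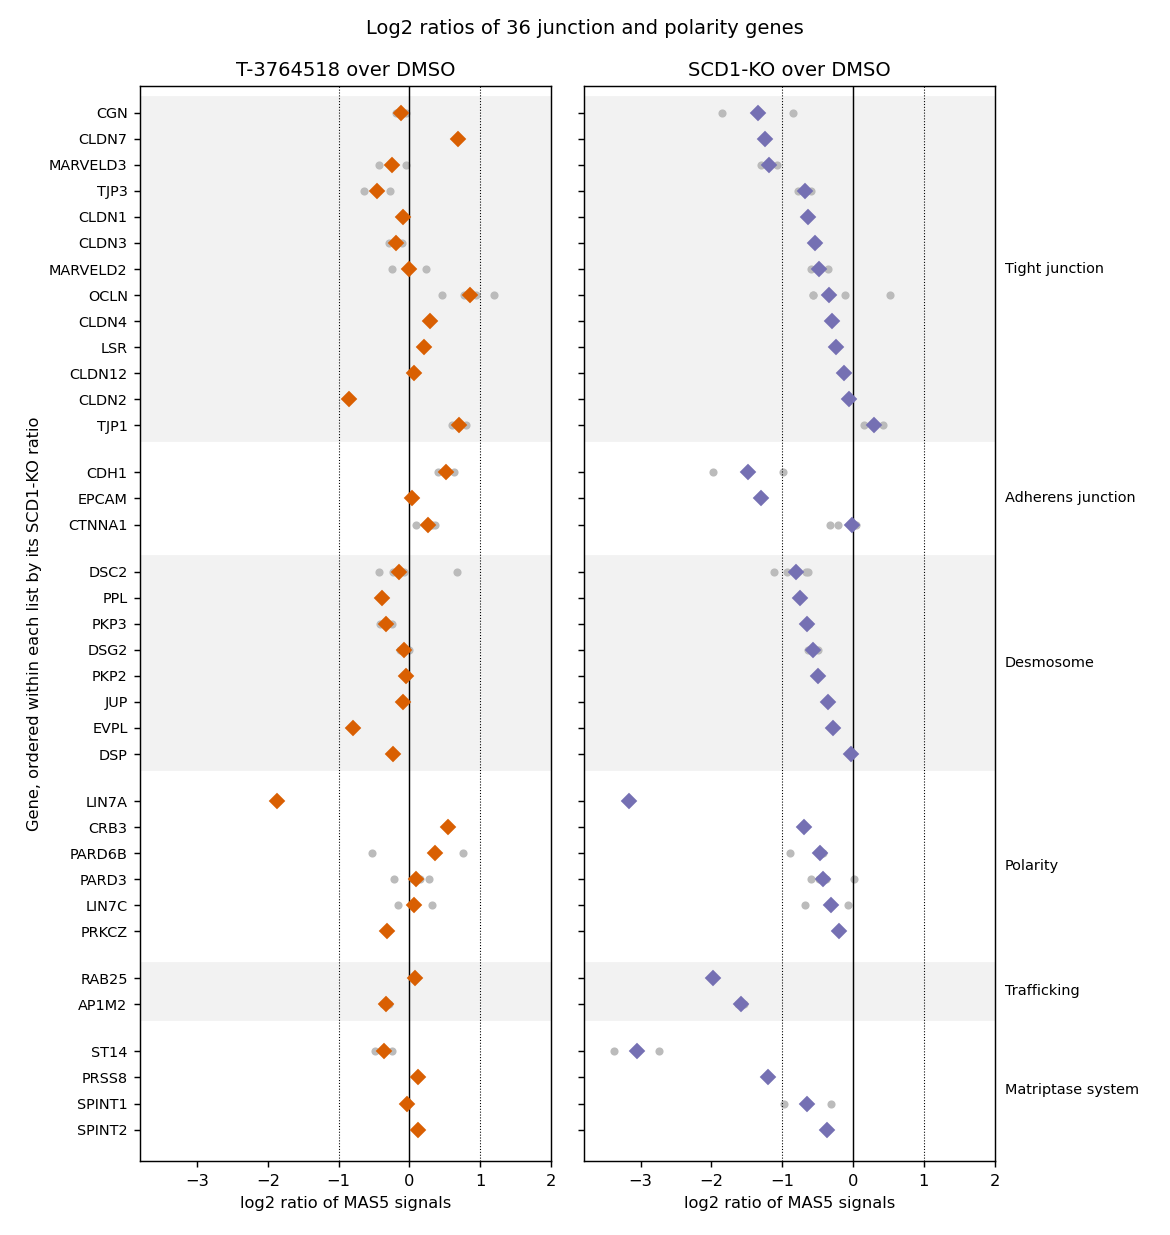
Log2 ratio of MAS5 signals to SCD1-WT cells with DMSO for 36 genes in 6 lists (rows), with T-3764518 (left) and in SCD1-KO cells (right). Diamonds are gene values, grey points the kept probe sets of genes with more than 1, and dotted lines mark 2-fold; 10 diamonds lie left of the dotted line for SCD1-KO cells and 1 for T-3764518.

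**Figure D2:**
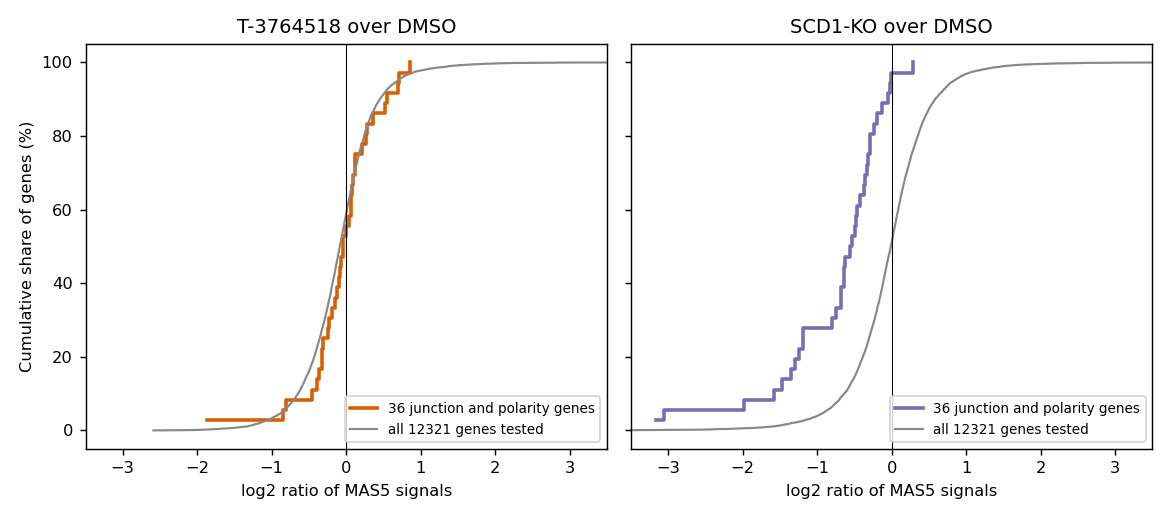
Cumulative share of genes (%) by log2 ratio for the 36 junction and polarity genes (thick steps) and all 12321 genes tested (thin line), with T-3764518 (left) and in SCD1-KO cells (right). With T-3764518 the medians were -0.041 and -0.087; in SCD1-KO cells they were -0.55 and -0.011.

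In the matriptase system, ST14, which encodes matriptase itself, stood lowest in SCD1-KO cells. Its 2 kept probe sets read 1473 and 687 with T-3764518, 261 and 93.2 in the knockout, and 1746 and 963 with DMSO. The SCD1-KO array was far below the others in both, giving an 8.32-fold lower level there, while T-3764518 was at 0.776-fold the level of DMSO. PRSS8, which encodes prostasin, a membrane-anchored protease that acts with matriptase, had signals of 824 with T-3764518, 332 in the knockout and 761 with DMSO, and was 2.29-fold lower in SCD1-KO cells. By gene medians the Kunitz inhibitors were nearer to DMSO in the knockout than the proteases. SPINT1, which encodes HAI-1, was 1.56-fold lower and SPINT2, which encodes HAI-2, 1.29-fold lower there. The 2 probe sets of SPINT1 differed, the brighter being 1.97-fold lower and the dimmer 1.24-fold lower. The log2 ratio of the brighter one, -0.98, was near the -1.195 of PRSS8, where the SD between probe sets was 0.34. With T-3764518 SPINT1 and SPINT2 were at 0.974-fold and 1.09-fold, and PRSS8 was at 1.08-fold. The median of the 4 genes, on the log2 scale, was 0.038 with T-3764518 and -0.92 in the knockout.

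The trafficking genes were RAB25, a small GTPase of apical recycling endosomes, and AP1M2, the epithelial μ subunit of the AP-1 adaptor that sorts proteins to the basolateral membrane. RAB25 had signals of 3618 with T-3764518, 870 in the knockout and 3437 with DMSO, a level 3.95-fold lower in SCD1-KO cells, while that with T-3764518 was 1.05-fold that of DMSO. The 2 probe sets of AP1M2 read 1218 and 539 with T-3764518, 483 and 240.2 in the knockout, and 1488 and 697 with DMSO. It was 2.99-fold lower in SCD1-KO cells. In both genes the SCD1-KO array was the lowest and the other 2 lay nearer to each other than to it.

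Among the adherens junction genes, CDH1, which encodes E-cadherin, was lower in SCD1-KO cells and above its DMSO level with T-3764518. The brighter of its 2 probe sets read 6686 with T-3764518, 1285 in the knockout and 5038 with DMSO. The dimmer one read 214, 70.1 and 138 on the same arrays. By their median, CDH1 was at 1.43-fold the DMSO level with T-3764518 and 2.78-fold lower in the knockout, where the log2 ratio of the brighter probe set was -1.97 and that of the dimmer one -0.98. EPCAM, an adhesion molecule that is a general marker of epithelial cells, had signals of 17224 with T-3764518, 6840 in the knockout and 16859 with DMSO, and was 2.46-fold lower in SCD1-KO cells. CTNNA1, which encodes α-catenin and links cadherins to actin, was measured by 5 probe sets and was near its DMSO level in SCD1-KO cells, at a log2 ratio of -0.015 with probe sets between -0.33 and 0.044. Of the 3 genes of this list, those of the transmembrane proteins were 2-fold lower and that of the cytoplasmic catenin was not.

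Tight junction genes were lower in SCD1-KO cells to varying degrees, 3 of 13 by 2-fold, with a median log2 ratio of -0.47. CLDN7, a claudin of the basolateral membrane that binds EPCAM, had signals of 9013 with T-3764518, 2360 in the knockout and 5580 with DMSO, a 2.36-fold lower level in SCD1-KO cells and a 1.62-fold higher one with T-3764518. DMSO thus lay between the other 2 arrays. The 2 probe sets of CGN, which encodes the cytoplasmic plaque protein cingulin, read 394 and 87.7 with T-3764518, 251 and 25.2 in the knockout, and 450.0 and 90.8 with DMSO. CGN was 2.54-fold lower in SCD1-KO cells by their median, but its dimmer probe set lay under 56.6 there, and with that signal raised to 56.6 the log2 ratio was -0.76, under 2-fold. MARVELD3, a tight junction protein related to occludin, read 358 and 180 with T-3764518, 150 and 115 in the knockout, and 371 and 241 with DMSO, and at 2.27-fold lower it was the called gene nearest to the threshold. The other genes of the list were under 2-fold in SCD1-KO cells, with log2 ratios between -0.68 for TJP3, which encodes ZO-3, and 0.29 for TJP1. CLDN1, CLDN3, CLDN4 and CLDN12 were at -0.63, -0.53, -0.30 and -0.13, MARVELD2, which encodes tricellulin, at -0.47, and LSR, which recruits tricellulin to tricellular contacts, at -0.24.

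Occludin and ZO-1 were the tight junction genes that stood highest with T-3764518. The 4 probe sets of OCLN, which encodes occludin, read 5950, 872, 784 and 283 with T-3764518, 2353, 305, 530 and 178 in the knockout, and 3476, 453, 572 and 123 with DMSO. All 4 were highest with T-3764518, for a median of 1.81-fold, while in the knockout 3 were below DMSO and 1 above it. TJP1, which encodes the scaffold ZO-1, had probe set signals of 8314 and 905 with T-3764518, 6115 and 693 in the knockout, and 5460 and 518 with DMSO. DMSO gave the lowest level of TJP1 in both probe sets, which gave 1.63-fold for T-3764518 and 1.22-fold for SCD1-KO cells. Higher by over 2 SD of the probe sets with T-3764518 were 3 genes of 36 (OCLN, TJP1 and CLDN7), against 4.79% of all genes, and lower by as much was 1, LIN7A, against 6.18%. CLDN2, which forms cation-permeable pores, went the other way, with signals of 63.9 with T-3764518, 111 in the knockout and 115.5 with DMSO. Its log2 ratio of -0.85 with T-3764518 was the nearest to the lower threshold among the genes not called, at a signal where the SD between probe sets was 0.58.

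None of the 8 desmosomal genes was 2-fold lower in SCD1-KO cells, where 3.93% of all genes were, so none of 8 lies near that share. From 1.5-fold 3 were lower (11.4% of all genes), and all 8 were below 0 there (51.1% of all genes), with a median log2 ratio of -0.53. DSC2, which encodes the cadherin desmocollin-2, was the lowest of them and the nearest to the threshold among all genes not called. Its 4 probe sets read 2937, 594, 349 and 144 with T-3764518, 1805, 240.4, 232 and 89.3 in the knockout, and 3451, 374, 367 and 194 with DMSO. The SCD1-KO array was lowest in each, and the median was 1.74-fold lower. DSG2, which encodes desmoglein-2, was at a log2 ratio of -0.56, the plakophilins PKP2 and PKP3 at -0.50 and -0.65, JUP, which encodes plakoglobin, at -0.36, and the plakins PPL (periplakin) and EVPL (envoplakin) at -0.75 and -0.29. DSP, which encodes desmoplakin and ties the plaque to keratin filaments, had signals of 9579 with T-3764518, 11086 in the knockout and 11254 with DMSO, with the SCD1-KO and DMSO arrays close together. With T-3764518 the list's median was -0.19, and EVPL was the farthest from 0, with signals of 196 with T-3764518, 280.3 in the knockout and 342 with DMSO, a log2 ratio of -0.80.

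In the polarity list 1 gene stood apart from the rest. LIN7A, a PDZ scaffold that binds the Crumbs partner PALS1, had a kept probe set at 166 with T-3764518, 67.5 in the knockout and 606 with DMSO, so that both perturbed arrays were below DMSO, by 3.65-fold with T-3764518 and by 8.98-fold in the knockout. The 3 further probe sets of LIN7A were too dim to keep; they read 50.3, 28.0 and 15.0 with T-3764518, 19.6, 22.6 and 0.658 in the knockout, and 56.0, 53.1 and 45.7 with DMSO. LIN7C, a paralog of LIN7A, had 3 probe sets and log2 ratios of 0.062 with T-3764518 and -0.31 in the knockout. CRB3, the epithelial Crumbs protein of the apical membrane, had signals of 733 with T-3764518, 313 in the knockout and 503 with DMSO, log2 ratios of 0.54 and -0.68 to DMSO for T-3764518 and the knockout, and was 2.34-fold higher with T-3764518 than in the knockout. PARD3 and PARD6B, which encode the PAR-3 and PAR-6β scaffolds, were at 0.095 and 0.36 with T-3764518 and at -0.43 and -0.46 in the knockout, and PRKCZ, the atypical protein kinase C ζ, was at -0.32 and -0.20. For these 6 genes the median was 0.078 with T-3764518 and -0.44 in the knockout.

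**Figure D3:**
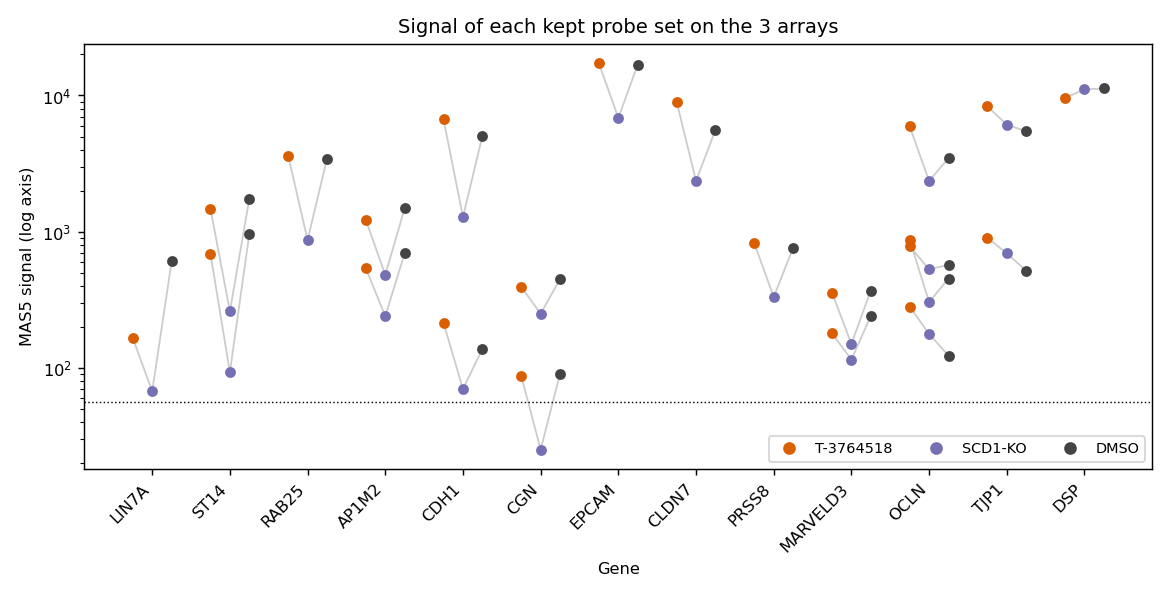
MAS5 signal (log axis) of every kept probe set of the 10 genes that were 2-fold lower in SCD1-KO cells and of OCLN, TJP1 and DSP, on the arrays of T-3764518, SCD1-KO and DMSO from left to right within each gene. Lines join the values of a probe set, and the dotted line is the filter level of 56.6; the SCD1-KO array is the lowest of the 3 for each of the 10 genes.

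Set side by side, the lists were lower in SCD1-KO cells in the order trafficking (2 genes, median log2 ratio -1.78), adherens junction (3 genes, -1.30), matriptase system (4 genes, -0.92), desmosome (8 genes, -0.53), tight junction (13 genes, -0.47) and polarity (6 genes, -0.44). The last 3 differed by less than the SD between probe sets, and the short lists rest on few genes. The medians with T-3764518 were -0.13, 0.26, 0.038, -0.19, -0.0067 and 0.078 in the same order. The adherens junction median in SCD1-KO cells was the value of EPCAM. Among the other genes of these structures, described below, 11 of adherens junctions had a median of 0.17 there. Of these 11, 2 were 2-fold higher and 2 lower. The other medians were -0.23 (trafficking, 7 genes), -0.18 (matriptase system, 1 gene), -0.67 (desmosome, 3 genes), -0.22 (tight junction, 13 genes) and -0.19 (polarity, 12 genes). Grouped by the place of the protein, a grouping made after the values were seen, the 19 genes of membrane-anchored proteins had a median of -0.63 in SCD1-KO cells, 6 of them 2-fold lower and all 19 below 0. The 17 genes of cytoplasmic proteins had a median of -0.46, with 4 lower and 16 below 0. RAB25, 1 of these 4, was counted as cytoplasmic although its protein acts on endosome membranes. Of all genes tested, 3.93% were 2-fold lower in SCD1-KO cells and 51.1% were below 0. The medians of the membrane-anchored and cytoplasmic groups differed by less than the SD between probe sets.

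The arrays of T-3764518 and SCD1-KO cells were also compared directly, without the DMSO array that both ratios share. Of 36 genes, 11 were 2-fold higher with T-3764518 than in SCD1-KO cells, with 0 lower, where 3.1% of all genes tested were higher and 4.52% were lower. Only 4 of 36 ratios were below 0, against 55.2% of all genes, and the median was 0.49, against -0.057 over all genes. From 1.5-fold, 15 were higher and 1 lower (9.08% and 14.2% of all genes), and past 2 SD of the probe sets 14 were higher and none lower (5.71% and 7.75%). All 18 genes with more than 1 kept probe set had every probe set above 0, which was not counted over all genes. The farthest were ST14 (6.45-fold higher with T-3764518), RAB25 (4.16-fold), CDH1 (3.99-fold) and CLDN7 (3.82-fold), and the genes below 0 were CLDN2, EVPL, DSP and PRKCZ, at log2 ratios of -0.80, -0.52, -0.21 and -0.12. Across the 3 arrays, 55 of the 65 kept probe sets were lowest in SCD1-KO cells, and for 28 of 36 genes this held for every kept probe set. The same was not counted over all genes, so these counts have no share to be set against.

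Promoter sequences are shown for some of the genes that were 2-fold lower in SCD1-KO cells. The E-box CACCTG, or CAGGTG on the other strand, is the element through which repressors of the ZEB and SNAIL families act on epithelial genes, and it was searched on both strands in the 250 bases before each start of transcription in the RefSeq table of GRCh38.p14. Of the 10 lower genes, 5 were matched to a start, with 7 windows. No window was matched for CDH1, ST14, EPCAM, MARVELD3 and PRSS8, which were not searched. The E-box, in capitals, was in 3 of the 7 windows, 1 each of RAB25, AP1M2 and CLDN7. The window of CGN, the other window of CLDN7 and both windows of LIN7A held none, and 1 of LIN7A is shown. The windows shown are RAB25 at chr1:156060910-156061159 (plus strand), AP1M2 at chr19:10587313-10587562 (minus strand), CLDN7 at chr17:7262479-7262728 (minus strand) and LIN7A at chr12:80937708-80937957 (minus strand).
RAB25: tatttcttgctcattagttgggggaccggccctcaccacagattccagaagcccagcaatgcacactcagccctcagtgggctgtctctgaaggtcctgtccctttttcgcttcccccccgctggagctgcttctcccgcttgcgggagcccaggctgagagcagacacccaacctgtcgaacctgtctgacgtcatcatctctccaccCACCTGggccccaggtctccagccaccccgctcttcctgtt
AP1M2: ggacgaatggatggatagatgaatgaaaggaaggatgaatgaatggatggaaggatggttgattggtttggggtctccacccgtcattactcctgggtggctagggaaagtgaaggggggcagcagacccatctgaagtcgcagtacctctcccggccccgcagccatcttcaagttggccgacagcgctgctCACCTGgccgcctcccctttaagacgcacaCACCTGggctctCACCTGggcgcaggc
CLDN7: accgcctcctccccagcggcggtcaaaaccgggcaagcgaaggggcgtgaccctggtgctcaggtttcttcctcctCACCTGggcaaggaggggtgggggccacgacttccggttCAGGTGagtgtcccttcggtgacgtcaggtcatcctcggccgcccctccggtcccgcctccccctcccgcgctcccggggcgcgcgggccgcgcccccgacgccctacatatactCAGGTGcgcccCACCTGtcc
LIN7A: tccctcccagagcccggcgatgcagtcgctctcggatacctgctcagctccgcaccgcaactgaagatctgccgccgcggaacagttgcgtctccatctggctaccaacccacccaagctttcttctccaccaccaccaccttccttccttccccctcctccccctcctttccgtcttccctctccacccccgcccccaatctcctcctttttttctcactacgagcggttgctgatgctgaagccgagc
The match in RAB25 began 41 bases before the start, those in AP1M2 at 57, 27 and 15 bases and those in CLDN7 at 174, 135, 20 and 9 bases. The E-box was present in 42.9% of the 7 windows of the lower genes, 35.3% of 34 windows of the 19 genes under 2-fold and 17.5% of 35116 windows of all genes. By gene, it was present for 3 of the 5 lower genes, for 10 of the 19 under 2-fold and for 5635 of all 27305 genes with a window. Its part in the lower levels was not tested. The median GC content of the windows was 60.4%, 66.4% and 58.0%. A match describes these letters and not a bound site, and windows of 1 gene can overlap.

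Other genes of these structures, from a list of 85, were read on the same arrays. Of 47 that were tested, 3 were 2-fold higher and 4 lower in SCD1-KO cells, with a median log2 ratio of -0.20, and 2 were higher and 3 lower with T-3764518, with a median of -0.026. As shares of the 47 these were 6.38% higher and 8.51% lower in SCD1-KO cells, where 3.12% and 3.93% of all genes were, and 4.26% higher and 6.38% lower with T-3764518, where 2.18% and 3.3% of all genes were. The lower genes of the knockout were all transmembrane adhesion molecules. They were DSC3, a desmosomal cadherin (6.23-fold, its geometric mean signal of 48.7 lying under the filter level there), NECTIN3 (4.75-fold) and NECTIN1 (2.56-fold), which are nectins of adherens junctions, and CXADR, a tight junction receptor for coxsackieviruses and adenoviruses (3.45-fold). ARVCF, a catenin of the p120 family, had signals of 115 with T-3764518, 195 in the knockout and 28.5 with DMSO, and AMOTL2, an angiomotin, was 2.72-fold higher in SCD1-KO cells. NECTIN4, a transmembrane nectin like NECTIN1 and NECTIN3, had signals of 79.7 with T-3764518, 81.0 in the knockout and 39.3 with DMSO. Unlike those 2 nectins it was 2-fold higher in SCD1-KO cells, the third gene to be so. Its DMSO signal and that of ARVCF lay under the filter level, and with low signals raised to it NECTIN4 was at 1.43-fold in the knockout and 1.41-fold with T-3764518, both under 2-fold, and ARVCF at 3.45-fold in the knockout and 2.03-fold with T-3764518. With T-3764518 the lower genes were CGNL1, which encodes paracingulin (3.02-fold), ILDR2, an angulin (2.22-fold), and CLDN23 (2.02-fold, and 1.85-fold with low signals raised). The higher ones were ARVCF and NECTIN4. The other polarity and trafficking genes that were tested, 12 and 7 in number, held none past 2-fold in either ratio to DMSO. With so few genes, none lies near the shares of all genes given above.

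Markers of the labelled cell type and of mesenchymal cells were read on the same arrays. Of 9 markers of colon epithelium 6 were tested and 3 were under the filter level on every array, and the summed signal of the list, taken over the brightest probe set of each gene, was 67916 with T-3764518, 70669 in the knockout and 61266 with DMSO. KRT8, KRT18 and KRT19, keratins of simple epithelia, stood at 0.36, 0.26 and 0.34 in SCD1-KO cells on the log2 scale, while KRT20, a keratin of differentiated colon cells, was 3.70-fold higher there and VIL1, which encodes villin of the brush border, stood at -0.15. CDX2, a transcription factor of intestinal epithelium, had signals of 60.9 with T-3764518, 115 in the knockout and 59.6 with DMSO. Of 9 mesenchymal markers and regulators 4 were tested, 2 of them 2-fold higher in SCD1-KO cells, and the summed signal was 1670 with T-3764518, 4911 in the knockout and 1921 with DMSO. VIM, which encodes vimentin, had signals of 314 with T-3764518, 2061 in the knockout and 463 with DMSO, and ZEB1, a repressor of CDH1, was 2.79-fold higher in SCD1-KO cells. TWIST1 went the other way, at -0.99, and 4 of the 9 were under the filter level on every array. Fibroblast markers had summed signals of 1802 with T-3764518, 1541 in the knockout and 1578 with DMSO, with 4 of 8 under the filter level on every array, and endothelial markers 330.1, 192 and 339 on the same arrays, with 4 of 5 under it. The leukocyte list of 7 genes had 5 with a probe set and 2 under the filter level on every array; its summed signal was 229.7 with T-3764518, 588 in the knockout and 237 with DMSO. Within it LYZ, which encodes lysozyme, had 45.1 with T-3764518, 446 in the knockout and 11 with DMSO. The part of these markers in the lower junction genes was not tested.

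In SCD1-KO cells the median of the junction and polarity genes was below 0 under each of the 10 other ways of processing tried. It lay between -0.64 and -0.41, 0.52 to 0.61 below the median of all genes. With T-3764518 it lay between -0.079 and 0.24, on either side of 0, and 0.020 to 0.094 above that of all genes. The number of genes 2-fold lower in SCD1-KO cells lay between 7 and 11, with 30 and 26 genes left by the stricter filter and without the probe sets that can match several transcripts. LIN7A was 2-fold lower in both perturbations under each of the 9 alternatives that kept it, and TJP1 was above DMSO in both under all 10.

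**Figure D4:**
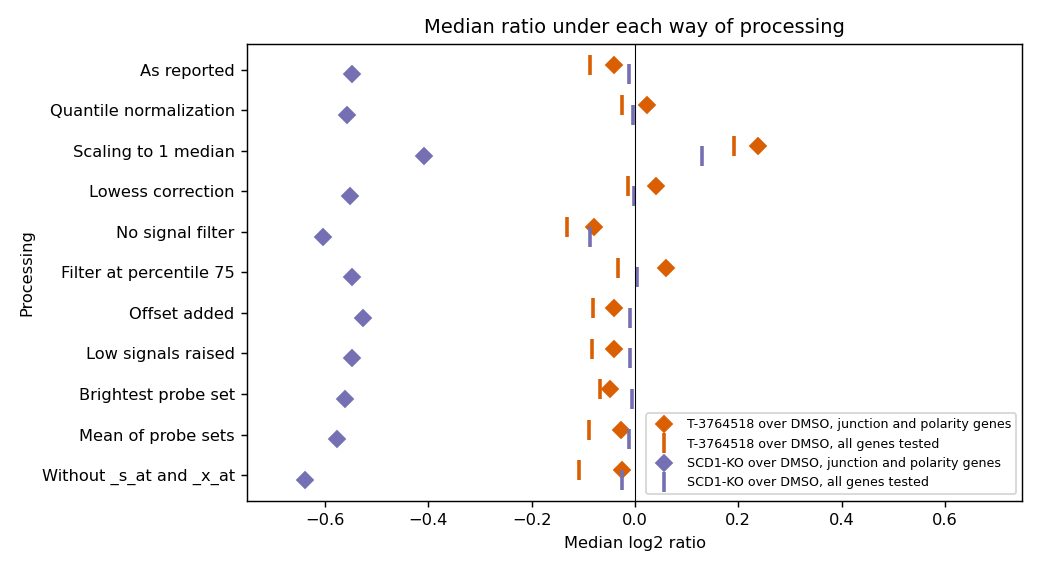
Median log2 ratio (horizontal axis) of the junction and polarity genes (diamonds) and of all genes tested (bars) for T-3764518 and for SCD1-KO cells, each over DMSO, as reported and under 10 other ways of processing (rows). The SCD1-KO diamonds lie between -0.64 and -0.41 and left of their bars in every row; those of T-3764518 lie between -0.079 and 0.24.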

How the data were processed

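RNA of HCT-116 cells was hybridised to the Human Genome U133 Plus 2.0 Array, 1 array per condition. The authors deposited 1 signal intensity on a linear scale for each of 54675 probe sets, produced by MAS5 according to the submitters' processing notes, which name no version. That method subtracts background and scales each array, and the mean signal without the brightest and dimmest 2% was 500.1 on each array. The number of arrays limits the precision.

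Everything after these signals was computed with Python 3.11.15, numpy 2.4.6, pandas 2.3.3, statsmodels 0.14.6 and matplotlib 3.10.9. Of the probe sets, 41097 carry 1 gene symbol, 1801 several and 11777 are not listed in the platform annotation. Single-gene probe sets at or above percentile 50 of mean log2 signal were kept (23192 probe sets of 12321 genes). Of the 73 probe sets of the genes described, 65 were kept, 1 each for 18 genes. The computation was tested on simulated arrays.

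The genes described, the lists, the 2-fold threshold and the alternatives were chosen with earlier results of these data known. Of the genes described, signals are given for those past 2-fold in a ratio to DMSO, the gene farthest from 0 in each list, CDH1, EPCAM, OCLN, TJP1 and DSP, and the genes nearest to the threshold. No set test and no test between arrays was run. The alternatives were 3 other normalizations (quantile, 1 median, lowess), 2 other filters, an offset of 16.5, low signals raised to 56.6, 2 other summaries of probe sets, leaving out probe sets marked _s_at or _x_at, and for counts a threshold of 1.5-fold or 3-fold or agreement of all probe sets of a gene. Promoters are from RefSeq.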

Additional observations from a re-analysis of the deposited data

Results flagged for a closer look

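For 5 genes the SCD1-KO array was 2-fold below DMSO while the T-3764518 array was above it. This difference between the perturbations was not tested, since each has 1 array. The same pattern was not counted over all genes, so the 5 have no share to be set against. Of all genes, 3.93% were 2-fold lower in SCD1-KO cells and 59% were below DMSO with T-3764518. The log2 ratio of T-3764518 to SCD1-KO cells was 2.06 for RAB25, 1.996 for CDH1, 1.93 for CLDN7, 1.33 for EPCAM and 1.31 for PRSS8. Against DMSO, only CDH1 and CLDN7 of these 5 were above DMSO with T-3764518 by more than the SD between probe sets at their signal (log2 ratios of 0.52 and 0.69). EPCAM, RAB25 and PRSS8 were at 0.031, 0.074 and 0.11, and over the alternatives that of EPCAM lay between -0.0098 and 0.31.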

How the results depend on the processing

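No paired analysis was possible because each condition had 1 array, and no replicate could be left out. No result changed sign among the called values. Of the main medians and counts, 259 values under alternatives stayed near the reported value and 39 did not. Near meant within the standard error over genes for a median and within 1.5 times for a count. For the remaining values these numbers were 1111 and 41. Most of those were single genes, judged by the SD between probe sets at their signal. The 10 genes that were 2-fold lower in SCD1-KO cells stayed so under every alternative that gave a gene value, except CGN, in 6 of 8. When every kept probe set had to be past 2-fold, CDH1 and CGN were not called. Each had 1 probe set short of it, at log2 ratios of -0.98 and -0.84.

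Scaling to 1 median moved the median of all genes by 0.28 with T-3764518 and 0.14 in the knockout and the direct ratio. The median log2 ratio of the genes described was then 0.24 with T-3764518, -0.41 in the knockout and 0.63 for T-3764518 over SCD1-KO. With T-3764518 the adherens junction, desmosome, matriptase and tight junction medians were 0.54, 0.087, 0.32 and 0.27, and in SCD1-KO cells those of desmosome and tight junction were -0.39 and -0.33; 1 gene was 2-fold higher with T-3764518. The share of lower genes among all calls was 22.8% with T-3764518 and 39.0% in the knockout, against 60.2% and 55.7% as reported, and with T-3764518 it was 41.9% after quantile normalization, 40.1% after lowess and 31.5% with the filter at percentile 75. For T-3764518 over SCD1-KO it was 59.3% as reported and 46.8%, 42.3%, 46.8% and 46.1% after quantile normalization, scaling to 1 median, lowess and the stricter filter.

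With the filter at percentile 75 the medians were 0.061 for all the genes described and 0.24 for tight junctions with T-3764518, and 0.38 for polarity in the direct ratio; 0 genes were 2-fold lower with T-3764518, since LIN7A was left out. Without the probe sets marked _s_at or _x_at, only CTNNA1 remained of the adherens junction genes, at 0.099 with T-3764518, -0.20 in the knockout and 0.30 in the direct ratio, where polarity was at 0.997. At 1.5-fold, 3 genes were higher and 3 lower with T-3764518, 17 were lower in the knockout and 1 was lower in the direct ratio; at 3-fold, 3 were lower in SCD1-KO cells and 4 higher in the direct ratio.

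The alternatives for the other pathway genes were added after seeing the data. With no filter, T-3764518 gave 8 higher and 10 lower and the knockout 5 higher and 17 lower; with the stricter filter these were 0, 0 and 1 for T-3764518 higher, T-3764518 lower and SCD1-KO higher. With T-3764518, 1 was higher after the offset, after raising low signals or without _s_at and _x_at probe sets, and 1 was lower after the offset, quantile normalization, scaling to 1 median or lowess, with 5 lower without those probe sets.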
